A study of Cannabis sativa with 10 samples.

Results

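The ethylene-responsive factor (ERF) family is a large group of plant transcription factors that carry a single AP2 DNA-binding domain. Its ERF branch is known for binding the GCC box in promoters of ethylene- and jasmonate-induced genes, and its DREB branch for binding the dehydration-responsive element in promoters of cold- and drought-induced genes. In Arabidopsis, ethylene reaches the ERF branch through its receptors, the kinase CTR1 and the factor EIN3. In cannabis, ethylene is known to favour female flowers, and silver, which blocks ethylene receptors, is used to obtain male flowers.

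Family members were taken from the annotation of the deposited Cannabis sativa gene table: genes with ERF in its family column, or with a product described as an ethylene-responsive transcription factor or a dehydration-responsive element-binding protein. This gave 100 of 35192 genes after 12 genes with AP2-like names had been dropped. The family column named 70 of them, and 30 were found by their description alone. Among the 70, 7 had other descriptions, such as ethylene-response factor C3, PTI5 and, as a gene whose description is not that of a transcription factor, the E4 SUMO-protein ligase PIAL2. WRI1 and 1 of the genes named RAP2-7 (LOC115718941) carried AP2 in the family column. A closest Arabidopsis protein was listed for 98 members, with identities of 35.13% to 86.89% and a median of 54.01%. The members lay on all 10 chromosomes, most of them on chromosome 1 (22), chromosome 5 (18), chromosome 4 (14) and chromosome X (14), and 1 was unplaced.

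Messenger RNA had been sequenced from shoot apices of 1 genotype, A3, in 10 libraries. There were 2 libraries in each of 5 groups: vegetative apices, male and female apices at week 1 of flower induction, and male and female apices at week 3. All male libraries, and no female or vegetative ones, carry a treatment named STS in the labels, read here as silver thiosulfate, so male sex and STS cannot be told apart. Nothing in the labels says that replicates were separate plants, so the p-values reflect the spread of these libraries alone, which may be technical. Values were read as FPKM (fragments per kilobase of gene, scaled to library size), and the depth in reads is unknown, so no counting interval can be given. Totals per library were 603616 to 764672 FPKM, of which the members held 0.126% to 0.184%.

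Markers of other cell types moved with the groups. All 8 tapetum and pollen markers were at 1 FPKM or more in both male week 3 libraries, where they summed to 1126 and 1515 FPKM, against 0.790 to 1.77 FPKM in the other 8 libraries, in which MALE STERILITY 1 was listed at 0. Of 5 carpel and ovule markers, 3 were at 1 FPKM or more in both female week 3 libraries and none in both male week 3 libraries. Their sum was 1.94 and 1.56 FPKM in male week 3 apices, 111 and 90.7 FPKM in female week 3 apices, and 0.901 to 17.2 FPKM in the 6 earlier libraries, and 1 of the genes was listed at 0 throughout. The 19 leaf markers summed to 5006 to 7459 FPKM at week 3 and to 12850 to 31360 FPKM earlier, with the lowest of the earlier sums in male week 1 replicate 1. Over all libraries the 4 shoot meristem markers summed to 11.5 to 33.7 FPKM, and 13 trichome markers to 707.3 to 2040 FPKM, lowest in male week 3 replicate 2. Most of the trichome sum was 1 gene, olivetolic acid cyclase-like (LOC115723438), at 701 to 2026 FPKM. Unlike the sums of their lists, the meristem marker WUSCHEL and a leaf marker (LOC115725363) were highest in male week 3 libraries. WUSCHEL had 2.66 and 5.77 FPKM there and at most 0.403 FPKM elsewhere, and LOC115725363 95.5 and 85.7 against 6.42 to 24.2 FPKM. The part of these cell types in the differences below was not tested, and in such bulk samples fewer cells of a type and less RNA per cell cannot be told apart.

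RAP2-12 (LOC115707171, chromosome 1, bases 43032778 to 43035435) was the most abundant member in all groups, at 160 to 329 FPKM. In Arabidopsis it is a group VII ERF whose protein is degraded in the presence of oxygen. The next by mean FPKM over all libraries were RAP2-4 (LOC115698113, 53.8 to 108 FPKM), a factor known in Arabidopsis from wound-induced dedifferentiation, 2 genes for the repressor ERF3, the cytokinin response factor relative ERF118 and the group VII member RAP2-3. At the other end, 4 members were listed at 0 in all libraries. A member was tested where the mean of any group reached 1 FPKM. This held for 59, of which 42 reached that level in all 5 groups and 11 in male week 3 apices alone. The other 41 were not tested.

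**Figure D1:**
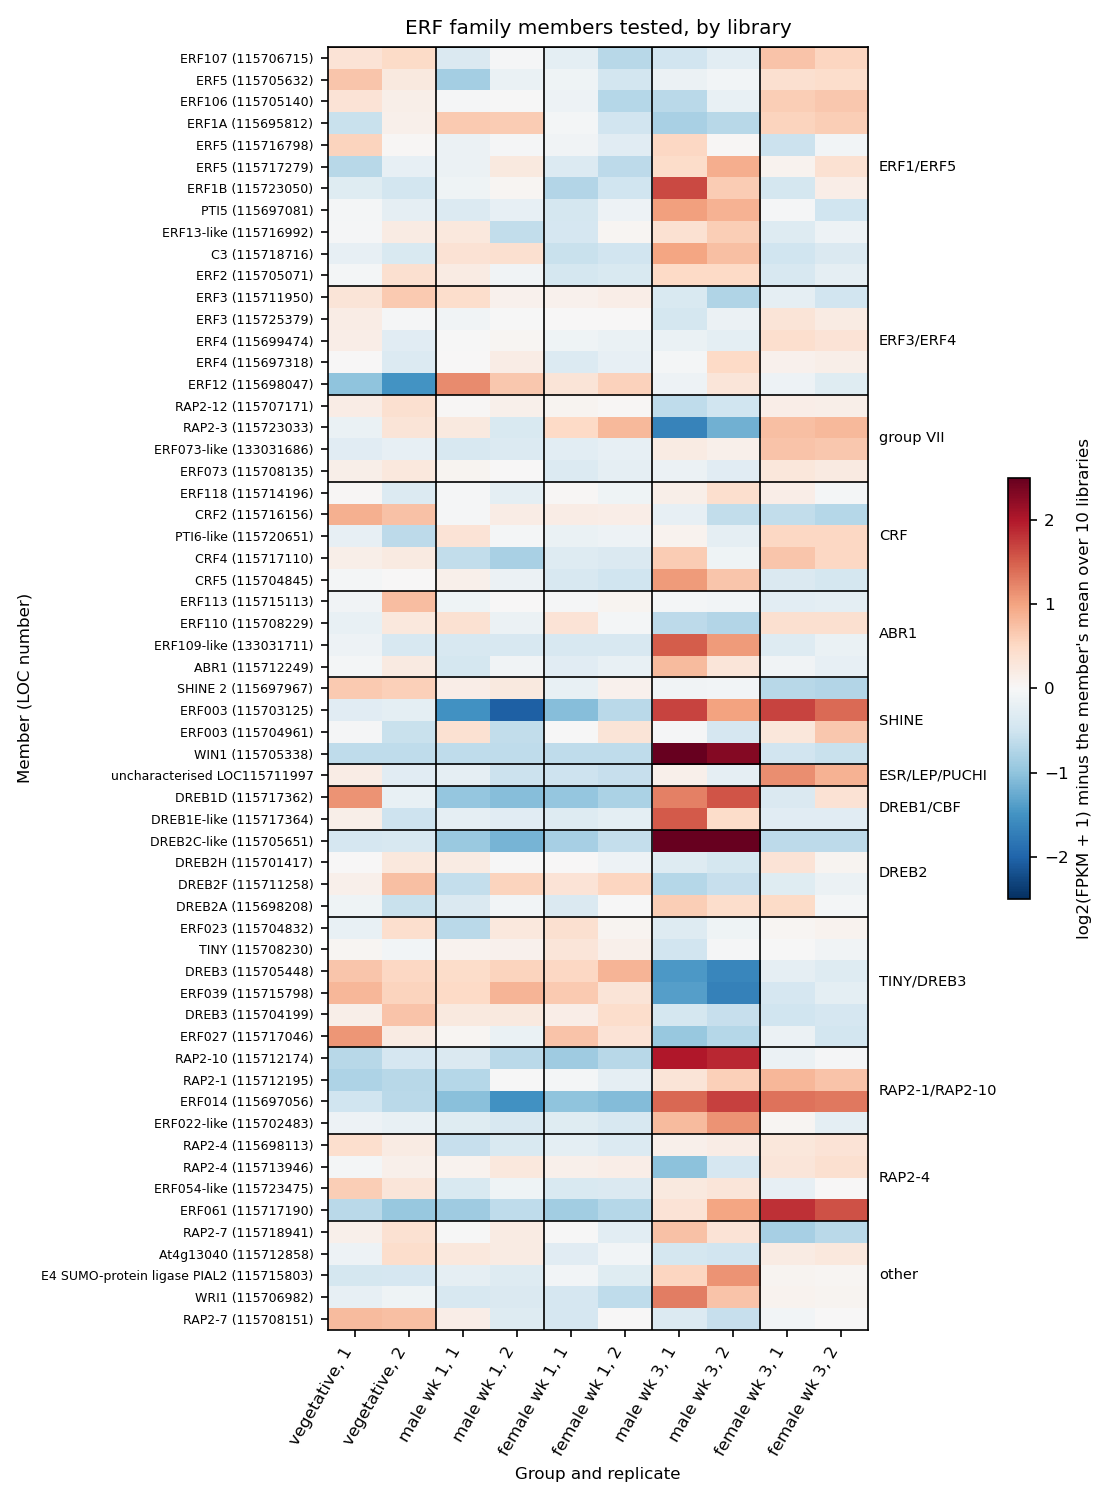
Level of the 59 tested ERF family members in each of the 10 libraries (columns, 2 per group), as log2(FPKM + 1) minus the member's own mean. Rows are grouped by the wording of their descriptions. Red marks values above the member's mean and blue below it, and the darkest colours also cover values beyond the scale: DREB2C-like and WIN1 are darkest red in male week 3, and RAP2-3, ERF039 and 1 DREB3 gene are blue there.

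No member was called between the sexes at week 1 of induction. In male week 1 against female week 1 apices, 0 of 59 members passed limma's test at an adjusted p under 0.05, beside 0.137% of all 18309 genes tested (0.12% higher and 0.0164% lower). At an unadjusted p under 0.05 there were 10 members, a count for which no like share of all genes is given here. The authors' deposited table also called 0 members, beside 54 of all 35192 genes. The differences ranged over -0.92 (ERF003, LOC115703125) to 0.90 (ERF1A, LOC115695812) on the log2(FPKM + 1) scale, with standard errors of 0.10 to 0.38. A p that misses the threshold does not show that the sexes were alike in these members.

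The smallest p was that of ethylene-response factor C3 (LOC115718716), a relative of Arabidopsis ERF1, the factor that EIN3 switches on. C3 had 0.894 and 0.947 FPKM in male week 1 apices, against 0 and 0.0566 FPKM in female week 1 apices. All of these values were under 1 FPKM, where values are the least precise. The difference was 0.90 ± 0.15 (SE) log2 units, with an adjusted p of 0.0748, and 0.0497 when a pseudocount of 0.1 was used. ERF1A (LOC115695812), another GCC box activator, had 18.8 and 18.6 FPKM in male week 1 apices, against 11.3 and 8.04 FPKM in female week 1 apices, a difference of 0.90 ± 0.21 with an adjusted p of 0.292. ERF003 (LOC115703125), grouped here with the SHINE factors though not named as one, had 2.06 and 1.12 FPKM in male week 1 apices. Female week 1 apices had 3.22 and 4.53 FPKM, with an adjusted p of 0.437.

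Set against vegetative apices, the members called at week 1 of induction were mostly lower. In female week 1 against vegetative apices 8 of 59 members were called (13.6%, beside 4.94% of all genes), 1 higher (beside 2.67%) and 7 lower (beside 2.27%). In male week 1 against vegetative apices 12 were called (20.3%, beside 6.4% of all genes), 3 higher (beside 3.54%) and 9 lower (beside 2.86%). Both comparisons used the same vegetative libraries. The members' median was -0.21 in female and -0.14 in male apices, while that of all genes was 0.00 in both.

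With 1 library left out at a time, 1 to 4 members were called in female apices. The split there was 1 higher and 0 lower without vegetative replicate 1, 1 and 1 without either female week 1 library, and 1 and 3 without vegetative replicate 2. In male apices 4 to 8 were called, with 3 to 7 lower, fewest without vegetative replicate 1. The members' median stayed at -0.29 to -0.21 in female and -0.17 to -0.11 in male apices. Fits of the compared groups alone, with fewer libraries to estimate the spread, called 1 higher and 0 lower in female apices and 0 in male apices. Of all genes tested, these fits called 2.15% in female and 0.0437% in male apices.

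ERF12 (LOC115698047), whose Arabidopsis counterpart is a repressor with an EAR motif, rose in both sexes at week 1. Its level was 2.38 and 1.41 FPKM in vegetative apices. Male apices had 14.4 and 9.82 FPKM at week 1 and female ones 7.45 and 9.08 FPKM, and at week 3 these were 5.16 and 7.30 FPKM in male and 5.21 and 4.48 FPKM in female apices. All 8 flowering libraries were above both vegetative ones. The rise over vegetative apices at week 1 was 2.18 ± 0.24 in male (adjusted p = 0.000992) and 1.69 ± 0.24 in female apices (adjusted p = 0.00454), and both calls held without any 1 library. In male apices ERF12 was then lower at week 3 than at week 1, by -0.85 ± 0.24, a call lost without male week 1 replicate 1 (adjusted p = 0.0668) or male week 3 replicate 1 (0.0923).

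Among the members that fell at week 1, RAP2-4 (LOC115698113) did so in both sexes. It had 53.8 and 61.7 FPKM in male week 1 and 68.2 and 63.9 FPKM in female week 1 apices, against 108 and 94.1 FPKM in vegetative apices. The fall in male week 1 was -0.80 ± 0.12 (adjusted p = 0.00395) and held without any 1 library. That in female week 1 apices, -0.61 ± 0.12 (adjusted p = 0.0189), was lost without vegetative replicate 1 (0.116), female week 1 replicate 1 (0.0988) or female week 1 replicate 2 (0.157). Its level was back at 88.6 and 92.9 FPKM in male week 3 and 98.7 and 103 FPKM in female week 3 apices. ERF003 (LOC115703125) fell in male week 1 against vegetative apices by -1.53 ± 0.25 (adjusted p = 0.00704, at most 0.0489 without any 1 library).

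At week 3 the sexes differed in most members. In male week 3 against female week 3 apices 36 of 59 members were called (61%, beside 60.3% of all genes tested), 18 higher (beside 31.7%) and 18 lower (beside 28.6%), so the share was near that of all genes. Of the 18 higher in male apices, 10 reached 1 FPKM in male week 3 apices alone and so could enter the test only by being high there. Among the 48 other tested members, 8 were higher (16.7%) and 18 lower (37.5%). The like shares over all genes were not computed, so this split is not read as a trait of the members. The 11 members that entered the test through male week 3 alone were WIN1, ERF109-like (LOC133031711), ABR1, DREB1E-like, DREB2A, PTI5, ERF2, ERF13-like (LOC115716992), C3 (LOC115718716), ERF1B (LOC115723050) and ERF022-like (LOC115702483). Their values against male week 3 are given as a description. The authors' deposited table called 16 members higher and 18 lower, beside 10356 of all 35192 genes in either direction. When libraries were rescaled to equal totals, the split was 17 higher and 27 lower, and after quantile normalisation 14 and 24, with the median of all genes moved to -0.27 and -0.26 from -0.02. Of all genes tested, 67.6% and 67.9% were then called in either direction.

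**Figure D2:**
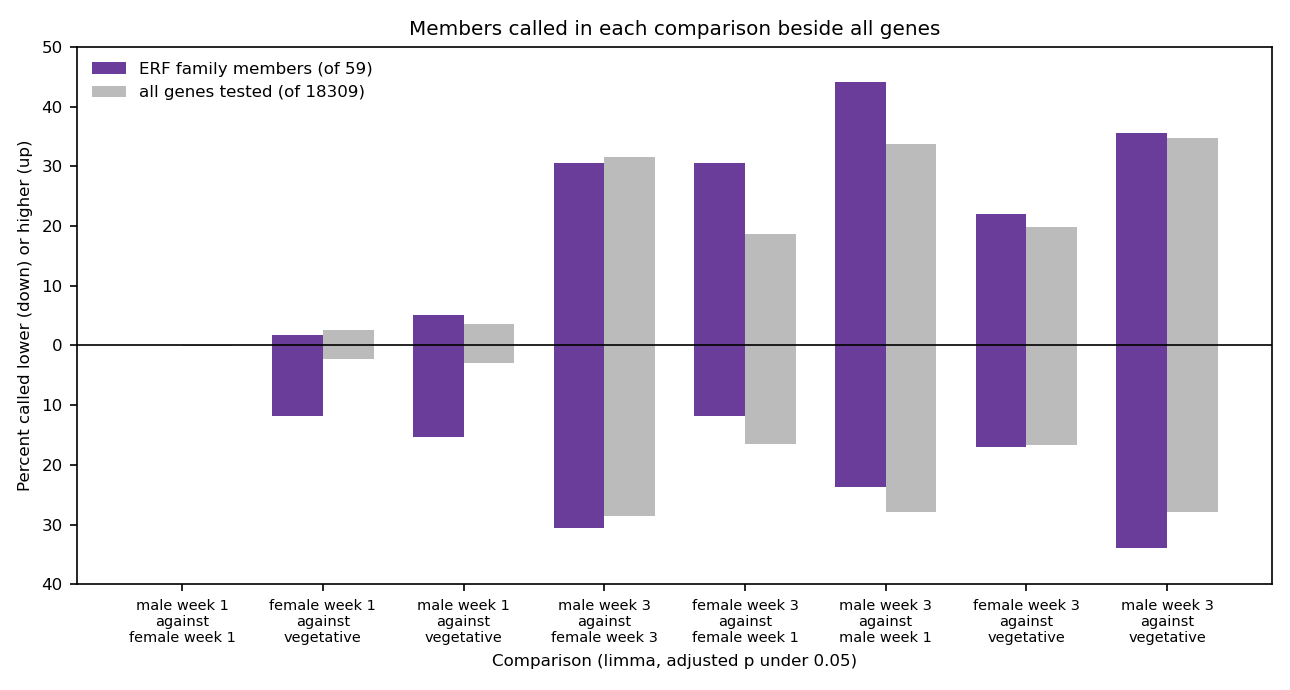
Percent of the 59 tested members (purple) and of all 18309 genes tested (grey) called higher (bars upwards) or lower (bars downwards) in each comparison, by limma at an adjusted p under 0.05. Members were called lower more often than genes in general in both comparisons of week 1 with vegetative apices, and about as often as genes in general between male and female apices at week 3.

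Over all 100 members, both male week 3 libraries lay above the 8 others in 36 members (36%, beside 19.5% of all genes), and below them in 11 (beside 12.8%). For female week 3 libraries the counts were 11 above (beside 9.36%) and 3 below (beside 5.89%). Vegetative libraries were above all others in 4 members (beside 2.83%) and below in 3 (beside 3.52%). For male week 1 the counts were 2 (beside 1.66%) and 5 (beside 1.55%), and for female week 1, 1 (beside 1.08%) and 4 (beside 1.22%). Low levels made up much of this: 9 members were above 0 in both male week 3 libraries and listed at 0 in the other 8 (beside 2.35% of all genes), none of them tested. The share of members at 1 FPKM or more was 61% and 55% in male week 3 libraries and 44% to 47% in the 8 others. Over all genes this share was 49.18% and 49.14% in male week 3 libraries and 45.49% to 46.76% in the 8 others.

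The largest male excess was in DREB2C-like (LOC115705651, chromosome 1, bases 73182238 to 73184901). Its relatives activate drought and heat genes in Arabidopsis. It had 104 and 120 FPKM in male week 3 apices, against 9.26 and 9.20 FPKM in female week 3 apices, and 6.25 to 11.3 FPKM in the 6 earlier libraries. The male week 3 libraries stood alone and the other groups lay close together. The differences were 3.47 ± 0.14 from female week 3 apices (adjusted p = 1.7e-08), 3.85 ± 0.14 from male week 1 apices (8.01e-09) and 3.22 ± 0.14 from vegetative apices (2.72e-08).

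The most abundant of the other DREB2 members, DREB2H (LOC115701417), had 22.1 and 20.3 FPKM in male week 3 apices, against 35.5 and 29.5 FPKM in female week 3 apices. It was lower in male apices by -0.59 ± 0.14 (adjusted p = 0.00483), a call lost without female week 3 replicate 1 (0.0559). DREB2A (LOC115698208), the drought and heat activator studied most in Arabidopsis, had 1.36 and 1.10 FPKM in male week 3 apices, against 1.14 and 0.484 FPKM in female week 3 apices, and this difference was not called. DREB2A was tested through male week 3 alone, so its differences are a description. It was higher in male week 3 than in male week 1 apices by 0.75 ± 0.23, a call lost without male week 1 replicate 1 (0.094) or male week 3 replicate 1 (0.0921), or after quantile normalisation (0.67). DREB2F (LOC115711258) had 0.055 and 0.166 FPKM in male week 3 apices and up to 1.93 FPKM elsewhere, and both 2D-like genes were under 1 FPKM throughout. At that level both had their highest values in the male week 3 libraries, with 0.0775 and 0.0781 FPKM for LOC133033917, listed at 0 elsewhere, and 0.296 and 0.529 FPKM for LOC115701352, against 0.146 and 0.169 FPKM in female week 3 apices.

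The DREB1 or CBF members are the cold-response factors of the family. DREB1D (LOC115717362) had 3.54 and 0.844 FPKM in vegetative apices. Male apices had 0.0708 and 0 FPKM at week 1 and female ones 0.0693 and 0.202 FPKM, and at week 3 these were 3.96 and 5.22 FPKM in male and 0.622 and 1.69 FPKM in female apices. Week 1 apices of both sexes were thus lowest, and the vegetative libraries lay far apart. DREB1D was higher in male week 3 than in male week 1 apices by 2.42 ± 0.38 (adjusted p = 0.000312), which held without any 1 library. Its excess over female week 3 apices was 1.41 ± 0.38 (adjusted p = 0.00847) and was lost without female week 3 replicate 1 (0.0784) or male week 3 replicate 2 (0.0706). DREB1E-like (LOC115717364) had 3.13 and 0.971 FPKM in male week 3 apices, against 0.179 and 0.178 FPKM in female week 3 apices. It was tested through male week 3 alone, so its difference from female week 3 apices is a description. This difference of 1.28 ± 0.32 (adjusted p = 0.00572) held without any 1 library and was lost after quantile normalisation (0.079). Its male week 3 libraries lay far apart. A pair of DREB1B-like genes on chromosome 1 (LOC115705606 and LOC115707894), within bases 28690012 to 28730358, was under 1 FPKM in all libraries and not tested.

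The TINY and DREB3 relatives, which in Arabidopsis include TINY, a factor that restrains growth under stress, held 6 tested members. In male week 3 against male week 1 apices 4 of these were lower (beside 27.9% of all genes), and in female week 3 against female week 1 apices 4 were lower (beside 16.5%), with 0 higher in either. DREB3 (LOC115705448, chromosome X) had 2.37 and 1.95 FPKM in male week 3 apices, against 6.79 and 6.35 FPKM in female week 3 apices, and 11.6 to 15.4 FPKM in the 6 earlier libraries. The 3 levels did not overlap. It fell at week 3 by -2.04 ± 0.15 in male (adjusted p = 1.62e-06) and by -0.95 ± 0.15 in female apices (0.00112), and the male minus female difference at week 3 was -1.26 ± 0.15 (5.37e-05). ERF039 (LOC115715798) had the same order, with 1.91 and 1.33 FPKM in male week 3, 4.57 and 5.35 FPKM in female week 3 and 8.41 to 12.4 FPKM in earlier apices. The other DREB3 gene (LOC115704199) was at 4.24 and 3.72 FPKM in male week 3 and 4.04 and 4.26 FPKM in female week 3 apices, where earlier libraries had 6.81 to 10.5 FPKM. TINY itself (LOC115708230), at 6.51 to 11.9 FPKM over all libraries, and ERF023 (LOC115704832), at 9.59 to 21.6 FPKM, were called in no comparison.

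RAP2-1, RAP2-10 and their relatives are DREB-type factors of which some carry a repression motif, and 4 of 9 were tested. In male week 3 against male week 1 apices the 4 were higher (beside 33.8% of all genes), among them ERF022-like (LOC115702483), which was tested only through male week 3. In female week 3 against female week 1 apices 3 were higher (beside 18.7%) and 1 was not called. RAP2-10 (LOC115712174, chromosome 4, bases 72911018 to 72912480), whose closest Arabidopsis protein is listed as cooperatively regulated by ethylene and jasmonate, was mainly male. It had 54 and 50 FPKM in male week 3 apices, against 11.5 and 12.5 FPKM in female week 3 apices, and 6.49 to 9.7 FPKM earlier. The male minus female difference was 2.03 ± 0.15 (adjusted p = 1.88e-06). ERF014 (LOC115697056) rose in both sexes, to 7.81 and 9.68 FPKM in male week 3 and 7.45 and 7.19 FPKM in female week 3 apices, where the 6 earlier libraries had 0.147 to 1.31 FPKM. Its rise over week 1 was 2.85 ± 0.19 in male (adjusted p = 7.07e-07) and 2.38 ± 0.19 in female apices (2.72e-05). RAP2-1 (LOC115712195) was highest in female week 3 apices, at 9.35 and 8.46 FPKM, with 6.19 and 7.76 FPKM in male week 3 and 2.40 to 4.71 FPKM in earlier apices.

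SHINE factors are known in Arabidopsis for switching on wax and cutin genes of the epidermis. The group used here also holds the ERF003 genes, whose closest Arabidopsis protein is listed as ethylene and salt inducible 3. Its 4 members were all tested. WIN1 (LOC115705338, chromosome 1, bases 46638855 to 46640083) had 8 and 6.6 FPKM in male week 3 apices, against 0.113 and 0.0562 FPKM in female week 3 apices, and was listed at 0 in the 6 earlier libraries. The difference between the sexes at week 3 was 2.93 ± 0.14 (adjusted p = 8.55e-08). WIN1 was tested through male week 3 alone, so this difference is a description. SHINE 2 (LOC115697967) was highest before flowering. It had 23.4 and 22.3 FPKM in vegetative apices. Male apices had 16.4 and 17.4 FPKM at week 1 and female ones 12.6 and 15.7 FPKM, and at week 3 these were 13.6 and 13.7 FPKM in male and 8.53 and 8.27 FPKM in female apices. At week 3 it was higher in male than in female apices by 0.64 ± 0.13 (adjusted p = 0.00151), with female libraries lowest of all.

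ERF003 (LOC115703125), counted in the same group but not named as a SHINE factor, rose at week 3 in both sexes. It had 27.4 and 16.6 FPKM in male week 3 and 27.4 and 22.3 FPKM in female week 3 apices, against 2.06 and 1.12 FPKM in male week 1 and 3.22 and 4.53 FPKM in female week 1 apices. The rise over week 1 was 3.13 ± 0.25 in male (adjusted p = 3.27e-06) and 2.41 ± 0.25 in female apices (0.00013). The second ERF003 gene (LOC115704961) ranged over 0.643 to 3.02 FPKM and was called in no comparison.

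**Figure D3:**
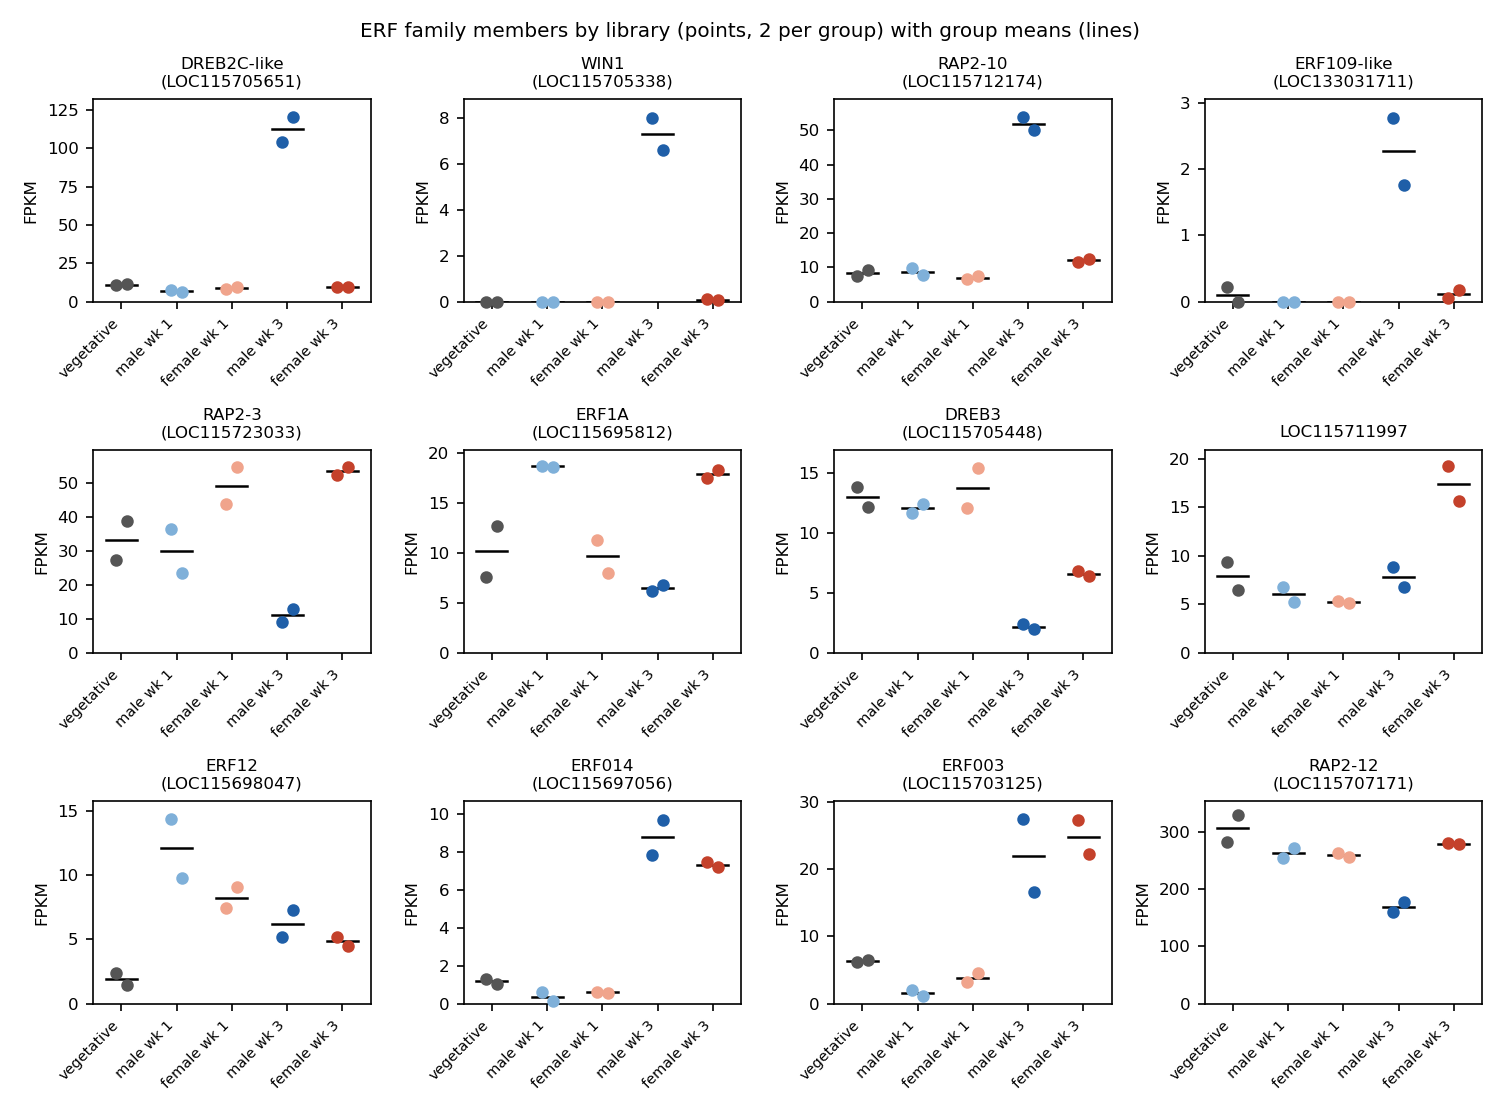
FPKM of 12 members in every library (points, 2 per group, in the order vegetative, male and female week 1, male and female week 3) with the mean of each group (lines). The vertical axes differ between panels and start at 0. DREB2C-like, WIN1, RAP2-10 and ERF109-like are high in male week 3 alone, RAP2-3 and RAP2-12 are lowest there, LOC115711997 is highest in female week 3, and ERF014 and ERF003 are high at week 3 in both sexes.

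Group VII ERFs are the oxygen-sensing branch, which in Arabidopsis switches on fermentation genes when oxygen is scarce. All 4 members were lower in male week 3 than in female week 3 apices (beside 28.6% of all genes). RAP2-3 (LOC115723033, chromosome 9, bases 5431396 to 5433058) showed the largest fall of any member in that comparison, with 9.09 and 12.9 FPKM in male week 3 apices, against 52.3 and 54.8 FPKM in female week 3 apices. The earlier libraries, at 23.4 to 54.7 FPKM, overlapped the female week 3 ones. The difference was -2.20 ± 0.24 (adjusted p = 2.97e-05). RAP2-12 (LOC115707171) had 160 and 178 FPKM in male week 3 apices, against 281 and 279 FPKM in female week 3 apices, a difference of -0.73 ± 0.13 (adjusted p = 0.000671), and its male week 3 values were below those of all other libraries.

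The other 2 members of group VII are annotated by the hypoxia-inducible Arabidopsis ERF73. ERF073-like (LOC133031686) had 31.7 and 30.0 FPKM in male week 3 apices, against 45.6 and 44.5 FPKM in female week 3 apices. Both were above the 20.7 to 23.8 FPKM of the 6 earlier libraries, and this member rose over week 1 by 0.53 ± 0.10 in male (adjusted p = 0.00134) and 0.92 ± 0.10 in female apices (0.000162). ERF073 (LOC115708135) had 17.0 and 15.4 FPKM in male week 3 apices, against 23.4 and 22.2 FPKM in female week 3 apices, a difference of -0.47 ± 0.11 (adjusted p = 0.00503). Of 11 tested genes with descriptions of hypoxia outputs, 2 were higher and 2 lower in male week 3 than in female week 3 apices, and 7 were not called. Over all genes tested 31.7% were higher and 28.6% lower. One of the 2 lower hypoxia outputs was pyruvate decarboxylase 1-like (LOC115718871), a fermentation enzyme. It averaged 2.75 ± 0.383 FPKM in male week 3 apices and 55.6 ± 8.64 FPKM in female week 3 apices (SD, n = 2 each), a difference of -3.91 ± 0.16 (limma, adjusted p = 2.33e-08). The 2 higher hypoxia outputs went the other way and are not described here, so this 1 gene does not stand for the list.

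The ERF1 and ERF5 type, the GCC box activators, held 24 members, of which 11 were tested. Between male and female week 3 apices 5 were higher, 3 lower and 3 not called (beside 31.7% of all genes higher and 28.6% lower). All 5 higher ones (ERF2, ERF13-like, PTI5, C3 and ERF1B) reached 1 FPKM in male week 3 alone, so they could enter the test only by being high there. Of the 6 others, 0 were higher and 3 lower, a split for which the like shares over all genes were not computed. ERF1A (LOC115695812) had 7.60 and 12.8 FPKM in vegetative apices. Male apices had 18.8 and 18.6 FPKM at week 1 and female ones 11.3 and 8.04 FPKM, and at week 3 these were 6.23 and 6.76 FPKM in male and 17.5 and 18.3 FPKM in female apices. It was lower in male than in female apices at week 3, by -1.34 ± 0.21 (adjusted p = 0.000419). It was also lower in male week 3 than in male week 1 apices, by -1.40 ± 0.21 (0.000301), and higher in female week 3 than in female week 1 apices, by 0.84 ± 0.21 (0.013). The female call was lost without female week 1 replicate 2 (0.103), female week 3 replicate 1 (0.0617) or female week 3 replicate 2 (0.0751). Only ERF1A and a RAP2-7 gene were called at week 3 against week 1 in opposite directions in the 2 sexes.

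Of the relatives of Arabidopsis ERF1, the 3 described next passed the filter through male week 3 alone, and their differences are a description. ERF1B (LOC115723050) had 4.17 and 1.57 FPKM in male week 3 apices, against 0.217 and 0.861 FPKM in female week 3 apices. The difference of 1.28 ± 0.31 (adjusted p = 0.00516) was lost without female week 3 replicate 1 (0.0529). C3 (LOC115718716) had 1.93 and 1.49 FPKM in male week 3 apices, against 0.0476 and 0.142 FPKM in female week 3 apices, a difference of 1.30 ± 0.15 (4.65e-05). PTI5 (LOC115697081), named after a tomato activator of pathogenesis-related genes, had 2.39 and 2.06 FPKM in male week 3 apices, against 0.634 and 0.189 FPKM in female week 3 apices, and 0.233 to 0.610 FPKM earlier. A C3 gene that was not tested (LOC115712543) had 0.683 and 0.535 FPKM in male week 3 apices, against 0.619 and 0.951 FPKM in female week 3 apices. C3 (LOC115718716) was at 0.894 and 0.947 FPKM in male apices at week 1, where it was higher than in vegetative apices by 0.67 ± 0.15 (adjusted p = 0.0305). That call was lost without any 1 of the 4 libraries compared (0.0692 to 0.180).

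Several of these genes are neighbours. On chromosome 1, ERF5 (LOC115705632), ERF107 (LOC115706715) and ERF106 (LOC115705140) lie within bases 1819424 to 1882979. ERF107 had 19.4 and 22.8 FPKM in male week 3 apices, against 45.6 and 40.6 FPKM in female week 3 apices, a difference of -1.0 ± 0.17 (adjusted p = 0.00068). ERF106 had 9.46 and 13.7 FPKM in male week 3 apices, against 24.6 and 25.6 FPKM in female week 3 apices, a difference of -1.07 ± 0.21 (0.00135). ERF5 had 21.2 and 22.4 FPKM in male week 3 apices, against 31.3 and 32.1 FPKM in female week 3 apices, and was not called in that comparison. In female apices ERF106 and ERF107 were higher at week 3 than at week 1, by 1.06 ± 0.21 (0.00342) and 1.09 ± 0.17 (0.00112).

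On chromosome 9, ERF1B (LOC115723050) lies beside ERF098-like (LOC115723371) and ERF096-like (LOC115722582), within bases 516539 to 566841. ERF098-like had 1.12 and 0.692 FPKM and ERF096-like 0.604 and 0.609 FPKM in male week 3 apices, and both were listed at 0 in the 8 other libraries. On chromosome 4, 2 C3 genes (LOC115712543 and LOC115713954) and 2 ERF098-like genes (LOC115713955 and LOC115713957) lie within bases 82193502 to 82225550, and none of them was above 1 FPKM in any library. On chromosome 5, 4 ERF5 genes lie within bases 69706514 to 69832191 at unequal levels. LOC115716798 had 4.13 to 10 FPKM and LOC115717279 had 2.14 to 8.63 FPKM, while LOC115718007 and LOC115715982 stayed at 0.0836 to 1.07 FPKM. Whether reads were shared between such near copies cannot be seen in the values.

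ERF3 and ERF4 are repressors with an EAR motif in Arabidopsis. Of their 5 tested relatives, ERF12 among them, 0 were higher and 2 lower in male week 3 than in female week 3 apices (beside 31.7% and 28.6% of all genes). ERF4 (LOC115699474) had 28.1 and 26.4 FPKM in male week 3 apices, against 42.5 and 40 FPKM in female week 3 apices. The difference was -0.58 ± 0.15 (adjusted p = 0.00606), close in size to the -0.56 ± 0.13 (0.00419) of ERF3 (LOC115725379). The other ERF3 gene (LOC115711950) had 34.6 and 26.5 FPKM in male week 3 and 38.7 and 32.5 FPKM in female week 3 apices, against 57.3 and 71.6 FPKM in vegetative apices. It was lower than in vegetative apices at week 3 by -1.06 ± 0.18 in male (0.000483) and -0.84 ± 0.18 in female apices (0.00486), the female call being lost without female week 3 replicate 2 (0.0507). The other ERF4 gene (LOC115697318) had 15.6 to 28.8 FPKM and was called in no comparison.

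Cytokinin response factors (CRFs) are known in Arabidopsis to act downstream of cytokinin in leaf and embryo growth, and 5 of 6 were tested. CRF5 (LOC115704845) was high in male week 3 apices, at 3.74 and 2.67 FPKM, against 0.774 and 0.680 FPKM in female week 3 apices, a difference of 1.27 ± 0.17 (adjusted p = 0.000137). CRF2 (LOC115716156) was highest in vegetative apices. It had 26.1 and 23.3 FPKM in vegetative apices. Male apices had 13.3 and 15.6 FPKM at week 1 and female ones 15.5 and 15.4 FPKM, and at week 3 these were 11.6 and 8.50 FPKM in male and 8.51 and 7.86 FPKM in female apices. Against vegetative apices it was lower at week 3 by -1.23 ± 0.15 in male (7.13e-05) and -1.48 ± 0.15 in female apices (9.15e-05).

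The other CRFs had profiles of their own. CRF4 (LOC115717110) was lowest at week 1, with 3.46 and 2.91 FPKM in male week 1 and 4.44 and 4.31 FPKM in female week 1 apices, and reached 9.63 and 5.34 FPKM in male week 3 and 10.1 and 8.79 FPKM in female week 3 apices. Its rise over week 1 was 0.97 ± 0.22 in male (adjusted p = 0.00317) and 0.95 ± 0.22 in female apices (0.00775). The female call was lost without female week 3 replicate 1 (0.0641). PTI6-like (LOC115720651) was higher in female week 3 than in vegetative apices by 0.95 ± 0.19 (0.00416), with 9.45 and 9.33 FPKM in female week 3 apices, against 5.26 and 3.59 FPKM in vegetative apices. ERF118 (LOC115714196) had 35.0 to 60.3 FPKM in all libraries.

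Few members are known as regulators of organ formation. The closest to Arabidopsis DORNROSCHEN-LIKE, a factor that acts where floral organs start to form, was LOC115711997 (chromosome 4, bases 5496257 to 5497882), listed as uncharacterized and 50.3% identical to it. It had 8.82 and 6.75 FPKM in male week 3 apices, against 19.2 and 15.6 FPKM in female week 3 apices, and 5.09 to 9.32 FPKM in earlier ones. Both female week 3 libraries were above all others. The male minus female difference was -1.07 ± 0.20 (adjusted p = 0.00105), and the rise at week 3 in female apices was 1.56 ± 0.20 (0.000345). The relative of LEAFY PETIOLE, ERF086-like (LOC115700310), was at 0.184 and 0.0616 FPKM in male week 3 apices and at 0 in the other 8 libraries. ERF086 (LOC115723530) was at 0.118 FPKM or less throughout.

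The ABR1 type holds factors known in Arabidopsis from abscisic acid, wound and redox responses. Of these, ERF109-like (LOC133031711) and ABR1 were tested through male week 3 alone, so their differences are a description. ERF109-like (LOC133031711), a relative of the redox-responsive factor RRTF1, had 2.77 and 1.76 FPKM in male week 3 apices, against 0.0589 and 0.175 FPKM in female week 3 apices, a difference of 1.53 ± 0.18 (adjusted p = 5.03e-05). ABR1 (LOC115712249) had 1.44 and 0.743 FPKM in male week 3 apices, against 0.322 and 0.224 FPKM in female week 3 apices. Its difference of 0.70 ± 0.20 (0.0132) was lost without female week 3 replicate 2 (0.0744) or male week 3 replicate 1 (0.0774), or after quantile normalisation (0.592). ERF110 (LOC115708229) was lower in male week 3 apices, at 1.21 and 1.09 FPKM, against 3.63 and 3.57 FPKM in female week 3 apices (difference -1.10 ± 0.23, 0.002). ERF113 (LOC115715113) had 2.72 to 6.69 FPKM and was called in no comparison.

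Of the RAP2-4 type, ERF061 (LOC115717190) rose at week 3 in both sexes. It had 2.56 and 4.58 FPKM in male week 3 apices, against 8.95 and 7.45 FPKM in female week 3 apices, and 0.469 to 0.807 FPKM in the 6 earlier libraries. The rise over week 1 was 1.43 ± 0.23 in male (adjusted p = 0.000364) and 2.5 ± 0.23 in female apices (5.7e-05), and the difference between the sexes at week 3 was -1.04 ± 0.23 (0.0028). The RAP2-4 gene LOC115713946 was lower in male week 3 apices, at 10.3 and 16.1 FPKM, against 27.5 and 29.2 FPKM in female week 3 apices (difference -1.08 ± 0.18, 0.000499).

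WRI1 and RAP2-7 are listed under ERF-type names although Arabidopsis counterparts belong to the AP2 family. WRI1 (LOC115706982), an activator of fatty acid synthesis genes, had 12.3 and 7.93 FPKM in male week 3 apices, against 4.77 and 4.74 FPKM in female week 3 apices, a difference of 0.92 ± 0.19 (adjusted p = 0.00206). RAP2-7 (LOC115718941), a relative of a repressor of flowering in Arabidopsis, had 44.2 and 33.5 FPKM in male week 3 apices, against 14.4 and 16.2 FPKM in female week 3 apices, a difference of 1.28 ± 0.17 (9.28e-05). The second RAP2-7 gene (LOC115708151) had its highest values in vegetative apices, at 3.86 and 3.68 FPKM, and 0.877 to 2.15 FPKM in all flowering libraries. Its fall against vegetative apices in male week 3 apices was -1.23 ± 0.21 (0.000572).

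Between week 1 and week 3 most members called in female apices rose, and in male apices some of those called higher were tested through male week 3 alone. In male week 3 against male week 1 apices 40 of 59 were called (67.8%, beside 61.7% of all genes), 26 higher (beside 33.8%) and 14 lower (beside 27.9%). Of the 26, 9 reached 1 FPKM in male week 3 alone, and among the 48 other tested members 17 were higher (35.4%) and 14 lower (29.2%). For such a restricted set the shares over all genes were not computed. In female week 3 against female week 1 apices 25 were called (42.4%, beside 35.2% of all genes), 18 higher (beside 18.7%) and 7 lower (beside 16.5%). These comparisons share no library. Of members called higher, 10 were higher in both sexes (38.5% of the male and 55.6% of the female list), and of those called lower, 5 (35.7% and 71.4%). Over all genes tested the shares were 24.2% and 43.8% for higher and 38.5% and 65.2% for lower.

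The balance of these calls depended on scaling. After quantile normalisation the split in male apices was 15 higher and 23 lower, as the median of all genes moved to -0.25, and C3 (LOC115718716) was then at -0.05 in place of 0.49. Rescaling to equal totals gave 24 higher and 5 lower in female apices, with the median of all genes at 0.22. Of all genes tested, quantile normalisation called 68.6% in male apices and rescaling called 42.8% in female apices. Without 1 library, 12 to 16 members were called in female apices, fewest without female week 3 replicate 1.

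Set against vegetative apices, 41 members were called in male week 3 apices (69.5%, beside 62.8% of all genes), 21 higher (beside 34.8%) and 20 lower (beside 27.9%). Of the 21, 8 reached 1 FPKM in male week 3 alone, and among the 48 other tested members 13 were higher (27.1%) and 20 lower (41.7%). The shares over all genes restricted in the same way were not computed, so this split is not read as a trait of the members. In female week 3 apices 23 were called (39%, beside 36.5% of all genes), 13 higher (beside 19.8%) and 10 lower (beside 16.8%). The second count was 14 without either female week 3 library. The splits were 21 higher and 9 lower after rescaling to equal totals and 11 and 14 after quantile normalisation in female apices, and 17 and 25 after quantile normalisation in male apices. Of all genes tested, 42.7%, 37.1% and 69% were called in these fits, in that order.

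Whether the difference between male and female apices changed between weeks 1 and 3 was tested as an interaction. It was called in 29 of 59 members (49.2%, beside 45.6% of all genes), 12 higher (beside 25.8%) and 17 lower (beside 19.9%), or in 19 without female week 3 replicate 1. After rescaling to equal totals the split was 9 higher and 18 lower, and after quantile normalisation 8 and 20. Of all genes tested, 51.5% and 52.5% were then called in either direction. The 59 include the 11 members tested through male week 3 alone, whose interaction values are a description. For DREB2C-like (LOC115705651) the interaction was 3.79 ± 0.19 (adjusted p = 2.44e-07) and for ERF1A (LOC115695812) -2.24 ± 0.30 (0.000222).

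**Figure D4:**
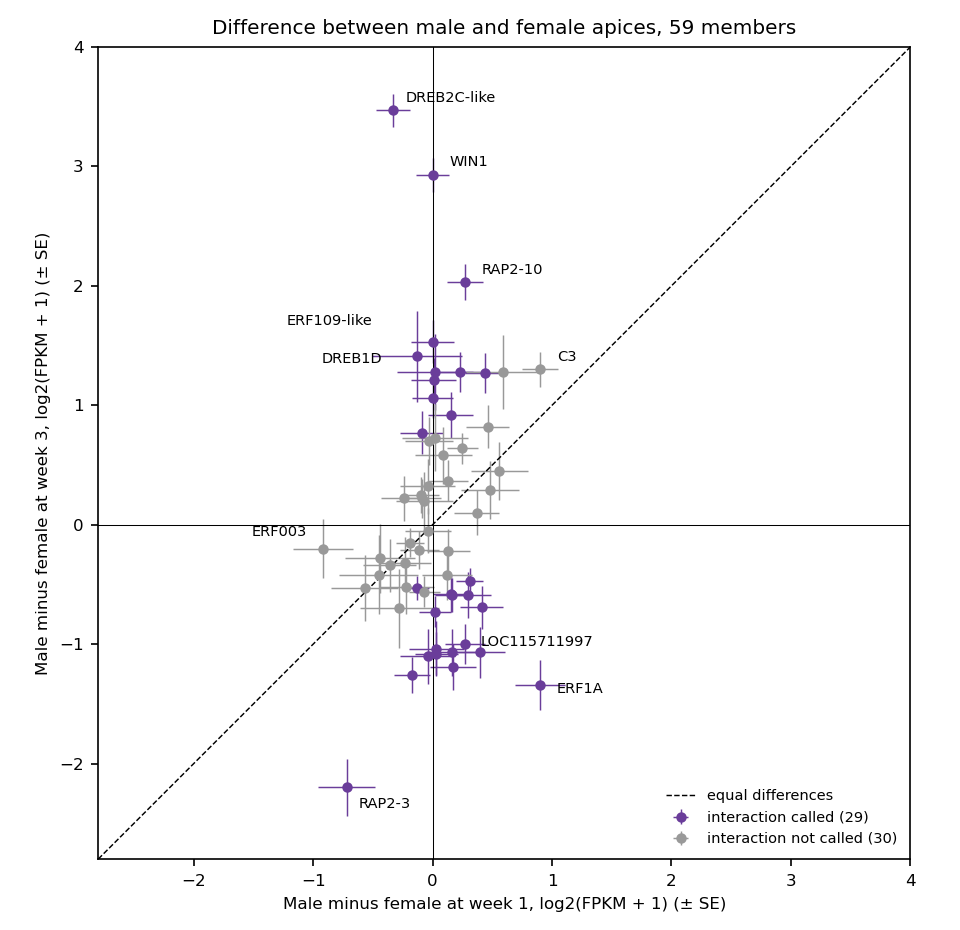
Male minus female difference at week 1 (horizontal) and at week 3 (vertical) on the log2(FPKM + 1) scale for the 59 tested members, with standard errors. Purple points were called in the interaction and grey ones were not; the dashed line marks equal differences. Week 1 differences lie between -0.92 (ERF003, LOC115703125) and 0.90 (ERF1A, LOC115695812), while those of week 3 reach from -2.20 (RAP2-3, LOC115723033) to 3.47 (DREB2C-like, LOC115705651).

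The genes that make and sense ethylene stand before the ERF branch. Of 24 genes described as such, 21 were tested. At week 1 male and female apices differed in 0 of them, and at week 3, 5 were higher and 6 lower in male apices (beside 31.7% and 28.6% of all genes), with a median of -0.18 beside -0.02 for all genes. Against week 1, 9 were higher and 1 lower in male week 3 apices (beside 33.8% and 27.9% of all genes), and 9 higher and 0 lower in female week 3 apices (beside 18.7% and 16.5%).

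Genes with the same description parted at week 3. An EIN3-like 1 gene (LOC115711236), of the type that switches on ERF1 in Arabidopsis, averaged 126 ± 13.4 FPKM in male week 3 apices and 23.0 ± 0.694 FPKM in female week 3 apices (SD, n = 2 each), while another EIN3-like 1 gene (LOC115706079) averaged 37.0 ± 4.36 FPKM in male and 85.8 ± 3.60 FPKM in female week 3 apices. The differences were 2.40 ± 0.17 (adjusted p = 1.24e-06) and -1.20 ± 0.13 (2.88e-05). EIN3-binding F-box protein 1 (LOC115720532), which marks EIN3 for degradation, averaged 108 ± 26.8 FPKM in male and 26.2 ± 0.0319 FPKM in female week 3 apices. ACC oxidase 5 (LOC115699408), of the enzyme that forms ethylene, averaged 42.6 ± 9.35 FPKM in male and 0.0249 ± 0.0352 FPKM in female week 3 apices. The main ACC oxidase by level (LOC115699412) averaged 165 ± 15.0 FPKM in male and 237 ± 15.9 FPKM in female week 3 apices (difference -0.52 ± 0.14, 0.0102), a call lost without female week 3 replicate 1 (0.0784) or male week 3 replicate 2 (0.0694).

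Genes whose descriptions name outputs known for the family were counted as well, beside 31.7% of all genes higher and 28.6% lower in male week 3 than in female week 3 apices. Of 30 tested genes linked to the dehydration-responsive element (dehydrins, late embryogenesis abundant proteins and the like), 10 were higher and 13 lower in male week 3 than in female week 3 apices, with a median of 0.07. Against week 1, 19 were higher and 5 lower in male week 3 apices (beside 33.8% and 27.9% of all genes), and 14 higher and 2 lower in female week 3 apices (beside 18.7% and 16.5%). Defence genes linked to the GCC box were matched by description alone (endochitinase, osmotin or defensin). Whether they carry that box was not tested. Of 13 such genes in the limma fit, 3 were higher and 7 lower in male week 3 than in female week 3 apices, with a median of -0.64. One of them, acidic endochitinase (LOC115705896), was called at week 1, at 3.60 ± 0.178 FPKM in male and 0.487 ± 0.0104 FPKM in female week 1 apices (difference 1.63 ± 0.17, adjusted p = 0.0117), a call lost without female week 1 replicate 1 (0.0694) or female week 1 replicate 2 (0.102). Of 44 tested cuticle genes linked to SHINE factors, 16 were higher and 14 lower in male week 3 than in female week 3 apices.

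Of the 41 members that were not tested, 37 were above 0 in some library, and male week 3 had the highest group mean in 27 of these. The like share over all untested genes was not computed, so this count is not read as a trait of the members. The share of all genes above 0 was also highest in male week 3 libraries, at 63.08% and 63.16%, against 56.21% to 58.67% in the others. The members above 0 in both male week 3 libraries and at 0 elsewhere included ERF106-like (LOC133038560), at 1.35 and 0.452 FPKM, a second ERF1B gene (LOC115698144), at 0.440 and 0.276 FPKM, and ERN1-like (LOC115723957), at 0.15 and 0.151 FPKM. ABI4 (LOC115703789), a factor of abscisic acid and sugar responses in Arabidopsis, was at 0.791 and 0.414 FPKM in male week 3 apices, against 0.0508 and 0 FPKM in female week 3 apices, and at 0 earlier. At such levels single values are imprecise, and a listed 0 does not show that a gene was silent.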

How the data were processed

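Shoot apices of 5 groups with 2 libraries each were compared from 1 deposited table of 35192 genes. The FPKM values are as the authors deposited them; they cannot be told apart from RPKM. How reads were aligned and counted is not given in the sources used here. Other columns deposited by the authors give log2 fold changes, adjusted p-values and, per the file headers, the percent identity of each protein to its closest Arabidopsis protein. All 100 members matched the RefSeq gene table of ASM2916894v1, the assembly of the coordinates given, by symbol and position.

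From the FPKM values, log2(FPKM + 1) was tested with limma 3.58.1 (R 4.3.3, trended and robust variance) on genes whose mean reached 1 FPKM in a group, 18309 genes and 59 members. The fit had 1 mean per group over all 10 libraries (5 residual degrees of freedom), and p-values were adjusted by Benjamini-Hochberg over all genes tested, with a threshold of 0.05. Fold changes on this scale understate changes of low genes. The script was tested on simulated data. Tables were handled with Python 3.11.15, pandas 2.3.3 and numpy 2.4.6.

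Genes were named for the largest changes in each comparison (up to 6 each way), the 6 highest means, or as well studied members. Subgroups follow the wording of the descriptions. Output lists (ethylene synthesis and signalling, GCC box defence, dehydration-responsive element, hypoxia, cuticle) and markers (tapetum and pollen, carpel and ovule, leaf, shoot meristem, trichome) were found by description. Members and lists were chosen with earlier results of these data known. Alternatives were other pseudocounts, filters, scalings and variance settings, a replicate block, fits of the compared groups alone, and leaving out each library.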

Additional observations from a re-analysis of the deposited data

Results flagged for a closer look

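The difference between male and female apices changed between week 1 and week 3 in 29 of 59 members by limma's interaction test. That was 49.2% of members, beside 45.6% of all genes tested, so the share was near that of all genes. The 59 include the 11 members tested through male week 3 alone. The 6 largest changes each way are given here. The values are the male minus female difference at week 3 minus that at week 1, on the log2(FPKM + 1) scale.

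The male side gained most in DREB2C-like (LOC115705651), by 3.79, and WIN1 (LOC115705338), by 2.93. RAP2-10 (LOC115712174) gained 1.76, ERF109-like (LOC133031711) 1.53, DREB1D (LOC115717362) 1.54 and DREB1E-like (LOC115717364) 1.26. WIN1, ERF109-like and DREB1E-like could enter the test only by being high in male week 3 apices, so their gains are a description. The calls of DREB1D and DREB1E-like were each lost without any of 7 of the 8 flowering libraries, with adjusted p-values up to 0.141 for DREB1D, without female week 3 replicate 1, and 0.104 for DREB1E-like, without male week 3 replicate 1.

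The change went the other way in ERF1A (LOC115695812), at -2.24, RAP2-3 (LOC115723033), at -1.48, and ERF106 (LOC115705140), at -1.47. ERF039 (LOC115715798) had -1.37, ERF107 (LOC115706715), the neighbour of ERF106, -1.27 and LOC115711997, the relative of DORNROSCHEN-LIKE, -1.23. These 6 calls held without any 1 library. The tapetum and pollen markers were at 1 FPKM or more in male week 3 libraries alone, and their part in these differences was not tested.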

How the results depend on the processing

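Of 88 differences of named members, 0 changed direction under 1086 alternatives and 116 lost their call, 71 of these when 1 library was left out. These 88 were picked as the largest called differences, and all alternatives reuse the same libraries, so a change of direction was unlikely from the start. Over all 214 called pairs of member and comparison, 1 changed sign under an alternative. For male against female week 1 apices a pseudocount of 0.1 called 1 member in place of 0, beside 0.0874% of all genes. For female week 1 against vegetative apices, 5 members were called without a filter on low values, 1 in a fit of these groups alone and 1 to 4 without 1 library, in place of 8. For male week 1 against vegetative apices the counts were 6, 0 and 4 to 8 in place of 12. Leaving out 1 library gave 14 to 22 calls for female week 3 against vegetative apices, 12 to 16 for female week 3 against female week 1 apices and 19 to 31 for the interaction. The cause was not tested. Deviations of the same replicate numbers had correlations of -0.417 to 0.215 over 10 pairs of groups. Whether replicates of the same number shared a batch cannot be told from these values. With a replicate block 35 members were called between the sexes at week 3 (beside 59.2% of all genes) and 0 at week 1 (beside 0.109%). Against vegetative apices it called 40 in male week 3 (beside 61.6%) and 21 in female week 3 apices (beside 34.1%). At week 1 these counts were 8 in male (beside 5.41%) and 6 in female apices (beside 4.22%). Week 3 against week 1 gave 39 in male (beside 60.5%) and 25 in female apices (beside 33.1%). The interaction was called in 28 (beside 44.2%). The depth in reads is unknown, and values under 1 FPKM are the least precise.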
